A study of Mus musculus with 14 samples.

Results

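Livers of TRPV4-KO mice were compared with livers of WT mice given the TRPV4 antagonist GSK219, to ask which functions were alike and which differed when the channel was lost and when it was blocked. The comparison used 3 TRPV4-KO and 3 GSK219 livers, chosen by their labels, of the 14 RNA-Seq samples in the series. The 2 livers of WT mice without the antagonist were set beside them, and the other samples, cultured pancreatic stellate cells, were not used. Every mouse had received an orthotopic injection of 100000 KPCY cells, a mouse pancreatic ductal adenocarcinoma (PDAC) line with a yellow fluorescent tracer, into the tail of the pancreas. Livers were taken 20 days later from mice of 8 to 12 weeks, of either sex.

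The TRPV4-KO is a global Trpv4-/- mutation, so all host cells carried it while the injected KPCY cells had functional TRPV4. GSK219 is the study's name for GSK2193874, which was given by orogastric gavage at 10 mg/kg every 24 hours. The mice called WT in the study's methods were Piezo fl/fl mice, and the Trpv4-/- mice came from another laboratory. Mutation, source of the line, gavage and antagonist therefore cannot be told apart in this comparison. Whether TRPV4-KO and WT mice received the vehicle by gavage is not given in the sources used here.

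TRPV4 is a cation channel of the transient receptor potential family that lets calcium enter a cell in response to stretch, osmotic swelling, warmth and lipid mediators. A knockout removes the protein for life, whereas an antagonist leaves the gene and its transcript in place and closes the pore while the drug is present. In a liver that responds to a distant tumor, cytokines such as IL-6 induce acute phase genes in hepatocytes, including the serum amyloid A genes Saa1 and Saa2, and neutrophils and monocytes are recruited.

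Trpv4 itself, on chromosome 5 (114622152 to 114658421, minus strand, GRCm38), had few reads in all livers. It had 15, 5 and 23 counts in TRPV4-KO livers, 20, 30 and 36 in GSK219 livers and 43 and 53 in WT livers. Both WT livers lay above all others, and the TRPV4-KO and GSK219 livers overlapped. The log2 fold change of TRPV4-KO over GSK219 was -0.99, with a standard error (SE) of 0.47 and a 95% interval of -2.05 to 0.07 (adjusted p = 0.861 by edgeR). Reads on parts of the gene that the mutation leaves in place would also be counted, so these counts do not show how much functional transcript remained.

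The 6 livers had 15971444 to 17395299 counts on genes, and the 10 most abundant genes took 14.6% to 17.4% of them. Alb, the hepatocyte transcript for albumin, was among the highest in all livers, with 51442 to 74029 CPM in the 6 livers, where CPM is a gene's count scaled to the size of its library. TRPV4-KO replicate 3, GSK219 replicate 3 and WT replicate 1 carried reads of Xist, the X-inactivation RNA of female cells, and the other 5 livers carried reads of Y-linked genes. Each group thus had 1 liver with Xist reads, and sex and the individual liver cannot be told apart within a group. Of 21 pancreatic exocrine genes, 4 had no reads in any liver, among them Amy2a5 (pancreatic amylase), and 3 (Cela1, Cela2a and Ctrl) had enough reads to test. The summed level of the 21 was 10.4 to 20.7 CPM in TRPV4-KO, 17.5 to 25.9 in GSK219 and 8.78 and 17.8 in WT livers, most of it from the elastase gene Cela1, and their part in the results was not tested.

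Across the 15118 genes tested, 8 genes were higher and 7 lower in TRPV4-KO than in GSK219 livers, which is 0.0992% of those tested. A gene passed the threshold where edgeR, fitted on all 8 livers, gave an adjusted p under 0.05 together with a log2 fold change above 1 or below -1. For all 15 genes the TRPV4-KO and GSK219 livers did not overlap, and the WT mean lay nearer to GSK219 than to TRPV4-KO. Such a threshold favors genes whose groups do not overlap, and the share of all genes without overlap is not given here. The higher genes were Gm9625, Gm8730, Gm12248, Gm12247, Gm1821, Kdm2b, Pebp1 and Gm10557. The lower genes were Gm5345, 2610507I01Rik, Cep83os, Hmga1, Sae1, Crlf2 and Rplp0. None is a marker of neutrophils, macrophages or the acute phase response. At an unadjusted p under 0.05, 6.12% of all genes differed, 3.48% higher and 2.64% lower in TRPV4-KO. For 10118 genes (66.9%) the 95% interval of the log2 fold change lay within -1 to 1.

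These counts depended on the setting. With the livers paired by their label numbers (a replicate block), a pairing the study does not describe, there were 9 higher and 10 lower genes. They included 12 of the 15, all but Sae1, Gm10557 and Gm12248. With the block in the 6 compared livers alone, 8 of the 15 passed, and Gm5345 (adjusted p = 0.0517), Cep83os (0.0608), Hmga1 (0.0612) and Crlf2 (0.0647 by edgeR) were lost as well. Without the block, 11 of the 15 passed in those 6 livers. DESeq2 called 45 higher and 48 lower, with all 15 genes among them. Without TRPV4-KO replicate 3, the liver with Xist reads, 38 were higher and 41 lower. In a fit of only the 5 Y-linked libraries, a choice made after the data were seen, the counts were 68 and 77 and again held all 15 genes. Only 1 TRPV4-KO and 1 GSK219 liver carried Xist reads, so no test could be made within them.

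**Figure D1:**
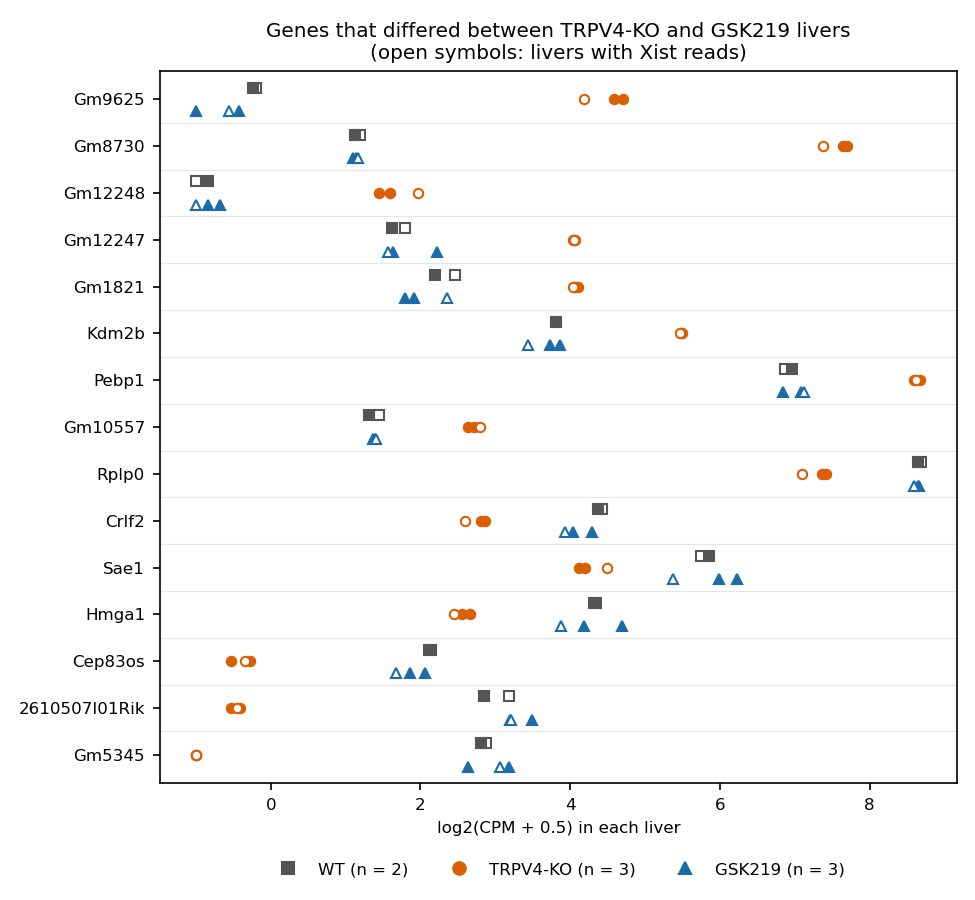
Level of the 15 genes that differed between TRPV4-KO and GSK219 livers, as log2 of CPM plus 0.5, with 1 symbol per liver (squares WT, circles TRPV4-KO, triangles GSK219; open symbols are livers with Xist reads). The 3 TRPV4-KO livers stand apart from the 3 GSK219 livers in every row, with the WT livers on the GSK219 side. The threshold that picked these genes favors groups that stand apart.

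One of the most abundant genes among them was Rplp0, which encodes a protein of the ribosomal stalk. Rplp0 had 171, 164 and 137 CPM in TRPV4-KO livers, 401, 403 and 386 in GSK219 livers and 411 and 400 in WT livers. TRPV4-KO was lower in every liver, with a log2 fold change of -1.34 (SE 0.11, 95% interval -1.60 to -1.08, adjusted p = 0.00355 by edgeR). Gm8730, annotated as a processed pseudogene, ran the opposite way. It had 207, 199 and 166 CPM in TRPV4-KO livers against 1.64, 1.69 and 1.73 in GSK219 and 1.79 and 1.69 in WT livers, a log2 fold change of 6.82 (SE 0.14, adjusted p = 2.53e-07 by edgeR). Gm9625, also a processed pseudogene, had 25.7, 23.5 and 17.7 CPM in TRPV4-KO livers and 0, 0.242 and 0.179 in GSK219 livers. Its WT livers had 0.371 and 0.35 CPM, and its log2 fold change was 7.22 (SE 0.48, adjusted p = 0.00107 by edgeR).

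Gm8730 and Gm9625 carry nearly the same sequence as Rplp0, so reads of one can be assigned to another. Over the 951 coding bases of Rplp0, Gm8730 differed at 12 positions and Gm9625 at 24. The same 120 bases of each are shown to let the copies be compared, starting at base 383 of the Rplp0 coding sequence, from the GENCODE M21 transcripts (GRCm38). Rplp0 lies on chromosome 5 (115559467 to 115563727, plus strand), Gm8730 on chromosome 8 (102864845 to 102865798, minus strand) and Gm9625 on chromosome 13 (67810246 to 67811200, plus strand). Capitals mark the 4 positions at which the 3 genes are not all alike.
Rplp0: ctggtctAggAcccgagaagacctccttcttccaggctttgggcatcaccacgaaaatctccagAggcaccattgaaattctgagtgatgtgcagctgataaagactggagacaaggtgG
Gm8730: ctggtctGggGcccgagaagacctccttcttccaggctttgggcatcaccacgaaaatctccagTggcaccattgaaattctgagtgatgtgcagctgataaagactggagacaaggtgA
Gm9625: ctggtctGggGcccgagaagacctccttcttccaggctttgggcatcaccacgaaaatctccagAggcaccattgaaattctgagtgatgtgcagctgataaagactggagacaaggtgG

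When Rplp0 was summed with the 5 genes that share its sequence, a step chosen after the data were seen, TRPV4-KO livers had 6385, 5981 and 5549 counts. GSK219 livers had 6406, 6707 and 6490, and WT livers 6679 and 6903. The sum differed by a log2 fold change of -0.10 (95% interval -0.37 to 0.16, adjusted p = 0.963 by edgeR). The opposite differences of Rplp0 and its copies were thus not present in their sum. Of the 15 genes, 12 shared a stretch of at least 100 bases at 95% identity or more with another annotated gene, as did 2 of the 5 named genes that came just short of the threshold. The share over all genes was not computed.

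Pebp1, an inhibitor of the Raf kinase pathway, was higher in TRPV4-KO livers also after its copies were summed. It had 384, 409 and 394 CPM in TRPV4-KO livers, 136, 114 and 139 in GSK219 livers and 116 and 124 in WT livers. The log2 fold change was 1.61 (SE 0.11, 95% interval 1.36 to 1.87, adjusted p = 0.0011 by edgeR), and 1.57 (adjusted p = 0.00151 by edgeR) for Pebp1 summed with Gm10819 and Gm9824. Hmga1, a chromatin architectural protein, was lower in TRPV4-KO, with 5.82, 5.38 and 4.98 CPM against 17.6, 25.4 and 14.2 in GSK219 and 19.8 and 19.5 in WT livers (log2 fold change -1.82, SE 0.22, adjusted p = 0.0279 by edgeR). Its near-identical copy Hmga1b had more counts in every TRPV4-KO liver (119, 75 and 110) than in any GSK219 liver (34, 34 and 21). Summed, the log2 fold change of Hmga1 was -0.84 (95% interval -1.33 to -0.36) and no longer passed the threshold (adjusted p = 0.441 by edgeR). Gm1821, a pseudogene of ubiquitin, was higher in TRPV4-KO (log2 fold change 2.17, adjusted p = 0.00601 by edgeR), and its sum with the ubiquitin gene Ubb differed by 0.10 (adjusted p = 0.975 by edgeR).

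Pebp1, Kdm2b, Crlf2 and Rplp0 lie on chromosome 5 within 10 Mb of Trpv4. These are 4 of the 253 genes tested in that window (1.58%), against 0.0992% of all genes tested. Rplp0, whose difference was absent once its copies were summed, is counted among them, which leaves 3 without it. Kdm2b, a histone demethylase, had 44.3, 44.7 and 43.9 CPM in TRPV4-KO livers, 12.8, 14.1 and 10.3 in GSK219 livers and 13.5 in both WT livers (log2 fold change 1.84, SE 0.13, adjusted p = 0.0011 by edgeR). The annotation places part of its transcripts over the neighbor Rnf34, with 627 identical bases. Crlf2, a subunit of the TSLP cytokine receptor, had 6.51, 6.74 and 5.56 CPM in TRPV4-KO livers, 15.9, 19.0 and 14.7 in GSK219 livers and 20.9 and 20.2 in WT livers. Its log2 fold change was -1.40 (SE 0.15, adjusted p = 0.0136 by edgeR). Acad10, an acyl-CoA dehydrogenase gene 7.00 Mb from Trpv4 that falls outside the naming rule, passed the adjusted p (0.0443 by edgeR) with a log2 fold change of 0.91, below the fold threshold. The median log2 fold change over the window was -0.00, against 0.01 over all genes tested. At an unadjusted p under 0.05, 15 genes of the window had higher and 12 had lower levels in TRPV4-KO, 10.7% of its genes against 6.12% of all genes.

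**Figure D2:**
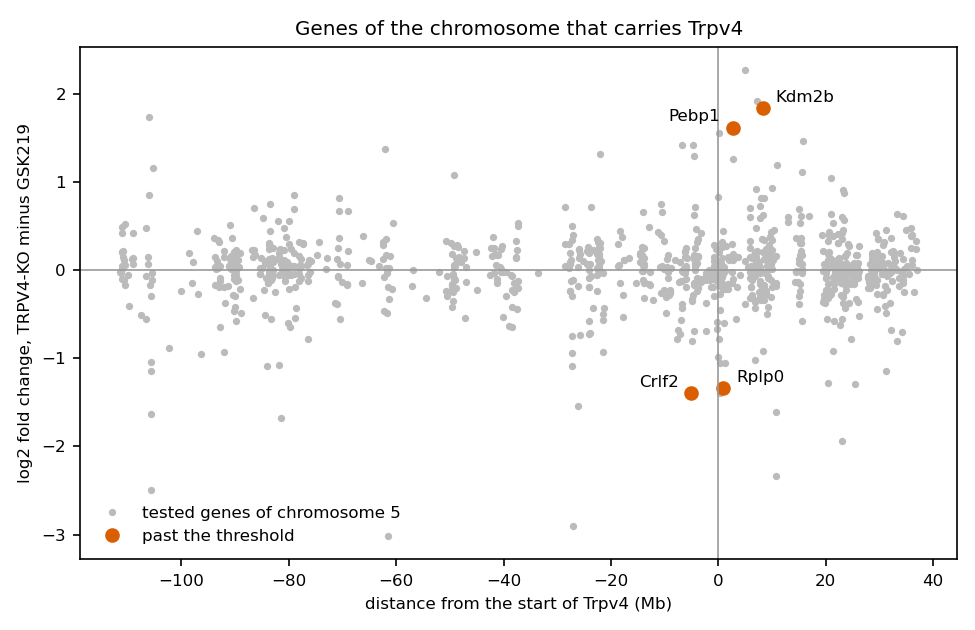
Log2 fold change of TRPV4-KO over GSK219 for each tested gene of chromosome 5 against its distance from Trpv4 in Mb. The 4 genes past the threshold, Crlf2 (-5.07 Mb), Rplp0 (0.937 Mb), Pebp1 (2.66 Mb) and Kdm2b (8.25 Mb), lie on both sides of Trpv4 and of 0, and other genes of the window with estimates beyond -1 or 1 did not pass.

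The other genes past the threshold were mostly pseudogenes and noncoding RNAs. Gm5345, a processed pseudogene with a stretch of 193 bases like Gapdh, had 0 counts in all 3 TRPV4-KO livers and 5.73, 8.58 and 7.89 CPM in GSK219 livers, at least 39.8-fold lower in TRPV4-KO at a floor of 3 counts per library. The noncoding RNA 2610507I01Rik had 0.253, 0.194 and 0.232 CPM in TRPV4-KO and 8.68, 10.8 and 8.73 in GSK219 livers (log2 fold change -5.33, adjusted p = 0.000161 by edgeR). It lies on chromosome 11 at 59199836 to 59202385. Gm12248 (58063552 to 58093134) and Gm12247 (58097104 to 58097773) lie on the same chromosome and were higher in TRPV4-KO, by log2 fold changes of 5.31 and 2.39 (adjusted p = 0.0384 and 0.00609 by edgeR). Cep83os, a noncoding RNA, was lower in TRPV4-KO (log2 fold change -3.53, adjusted p = 0.0045 by edgeR), and Gm10557, a pseudogene, was higher (1.52, adjusted p = 0.0443 by edgeR).

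Sae1, a subunit of the SUMO-activating enzyme, had 17.9, 16.9 and 22.0 CPM in TRPV4-KO livers, 74.5, 63.1 and 40.9 in GSK219 livers and 53.4 and 57.3 in WT livers. Its log2 fold change was -1.65 (SE 0.22, adjusted p = 0.0443 by edgeR), and 0.088 was its adjusted p with the replicate block. Genes that came next but missed the threshold were the pseudogenes Gm10819 and Gm18860, with higher levels in TRPV4-KO, and Robo1 (a receptor of SLIT guidance proteins), Dusp4 (a MAP kinase phosphatase) and Klf1 (an erythroid transcription factor), with lower levels. Klf1 went against the other erythroid and blood genes, since 8 of the 9 tested had estimates above 0, with a median of 0.23. At an unadjusted p under 0.05, 2 of the 9 were higher and 1 lower (33.3%, against 6.12% of all genes). Robo1 had 4.11, 3.63 and 4.57 CPM in TRPV4-KO livers, 10.8, 11.2 and 16.4 in GSK219 livers and 19.9 and 27.4 in WT livers. Its log2 fold change was -1.64 (adjusted p = 0.0506 by edgeR), and GSK219 lay between the others. Robo1 passed the threshold with the replicate block in 8 livers (-1.62, adjusted p = 0.0376 by edgeR) and with DESeq2 (adjusted p = 1.22e-07), but not with the block in the 6 compared livers (adjusted p = 0.0712 by edgeR).

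Functions were then described by 48 gene lists, by the number of members tested and their median log2 fold change. For 42 of the 48 lists the median of TRPV4-KO over GSK219 lay within -0.3 to 0.3. A member passed the threshold in 2 lists, the window around Trpv4 and the ribosomal proteins, where it was Rplp0. The rest of the differences between lists concern members at an unadjusted p under 0.05, which are not calls.

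Acute phase genes had estimates on both sides of 0, from -0.49 (Fga) to 1.60 (Mt2, a metallothionein), 15 above and 15 below. Over 30 members the median log2 fold change of TRPV4-KO over GSK219 was 0.01, and the 95% interval of 18 lay within -1 to 1. At an unadjusted p under 0.05, 1 was higher (Saa4, log2 fold change 0.50) and 1 lower (Fga). Beside WT, the median was 0.92 for WT over TRPV4-KO and 0.91 for WT over GSK219, with 19 and 16 members higher in WT and none lower in WT at an unadjusted p under 0.05. Among all genes tested, WT exceeded TRPV4-KO at that level for 9.5% and lay below it for 7.61%. For WT beside GSK219 the shares were 5.87% and 2.34%. Both comparisons share the same 2 WT livers, so their likeness is not independent evidence.

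Saa1 had 632, 468 and 554 CPM in TRPV4-KO livers, 300, 740 and 194 in GSK219 livers and 5981 and 4499 in WT livers. The TRPV4-KO and GSK219 livers overlapped and both WT livers lay far above them. The log2 fold change of TRPV4-KO over GSK219 was 0.42 (95% interval -0.60 to 1.45, adjusted p = 0.96 by edgeR). Saa2 had 203, 184 and 290 CPM in TRPV4-KO, 119, 322 and 82.8 in GSK219 and 5277 and 3962 in WT livers, with a log2 fold change of 0.37 (95% interval -0.74 to 1.47). Hp, which encodes haptoglobin and was picked with its values known, had a narrower interval, at 5368, 4841 and 4703 CPM against 6060, 4975 and 4518 (log2 fold change -0.06, 95% interval -0.48 to 0.35). Fga, the fibrinogen alpha chain, had 5320, 4110 and 6066 CPM in TRPV4-KO, 5915, 9180 and 6725 in GSK219 and 10760 and 9250 in WT livers (log2 fold change -0.49, adjusted p = 0.801 by edgeR).

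The neutrophil genes were low in both groups. Of 15 genes for granule proteins 13 were tested, and none differed between TRPV4-KO and GSK219 at an unadjusted p under 0.05 (0 by edgeR). Of these 13, 12 were higher in WT than in TRPV4-KO and 12 higher in WT than in GSK219 at that level, with medians of 3.04 and 3.35. Over all genes tested, 9.5% and 5.87% were higher in WT. The summed level of the list was 122, 52.0 and 295 CPM in TRPV4-KO livers, 83.5, 222 and 198 in GSK219 livers and 1269 and 438 in WT livers. Lcn2, which hepatocytes also express, gave most of the sum in TRPV4-KO replicate 3. With so few reads the comparison was imprecise, and the interval of only 1 of the 13 lay within -1 to 1. In whole liver RNA, fewer cells of a type and less RNA per cell cannot be told apart.

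S100a8 and S100a9, calcium-binding proteins of neutrophils and activated macrophages, showed the same order. S100a8 had 0.443, 0.972 and 2.03 CPM in TRPV4-KO, 0.881, 1.09 and 1.2 in GSK219 and 13.6 and 16.0 in WT livers (log2 fold change of TRPV4-KO over GSK219 0.13, 95% interval -0.95 to 1.21). S100a9 had 0.443, 0.907 and 2.78 CPM in TRPV4-KO, 0.881, 1.75 and 2.33 in GSK219 and 16.9 and 23.0 in WT livers (-0.25, 95% interval -1.67 to 1.16). Mpo (myeloperoxidase) was at 0, 0 and 0.289 CPM in TRPV4-KO and 0, 0.0604 and 0.179 in GSK219 livers. Elane (neutrophil elastase) was at 0, 0.194 and 0.289 CPM in TRPV4-KO and 0.126, 0.181 and 0.299 in GSK219 livers. Both are defining neutrophil genes at or near 0 after loss and block, so no difference between the groups was detectable at this depth.

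Cd177, a surface protein of neutrophils, had a log2 fold change of -1.31 with an interval of -3.09 to 0.48, and Mmp8, a neutrophil collagenase, 1.38 with an interval of -0.96 to 3.72. Cxcr2, the chemokine receptor that guides neutrophils, had 0.253, 0.259 and 0.116 CPM in TRPV4-KO and 0.315, 0.302 and 0.299 in GSK219 livers. These groups did not overlap, but the log2 fold change of Cxcr2 was -0.54 (adjusted p = 0.959 by edgeR). The chemokine Ccl6 had 10.6, 9.26 and 17.8 CPM in TRPV4-KO, 10.9, 24.6 and 27.3 in GSK219 and 102 and 55.3 in WT livers (log2 fold change -0.74, 95% interval -1.70 to 0.22).

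**Figure D3:**
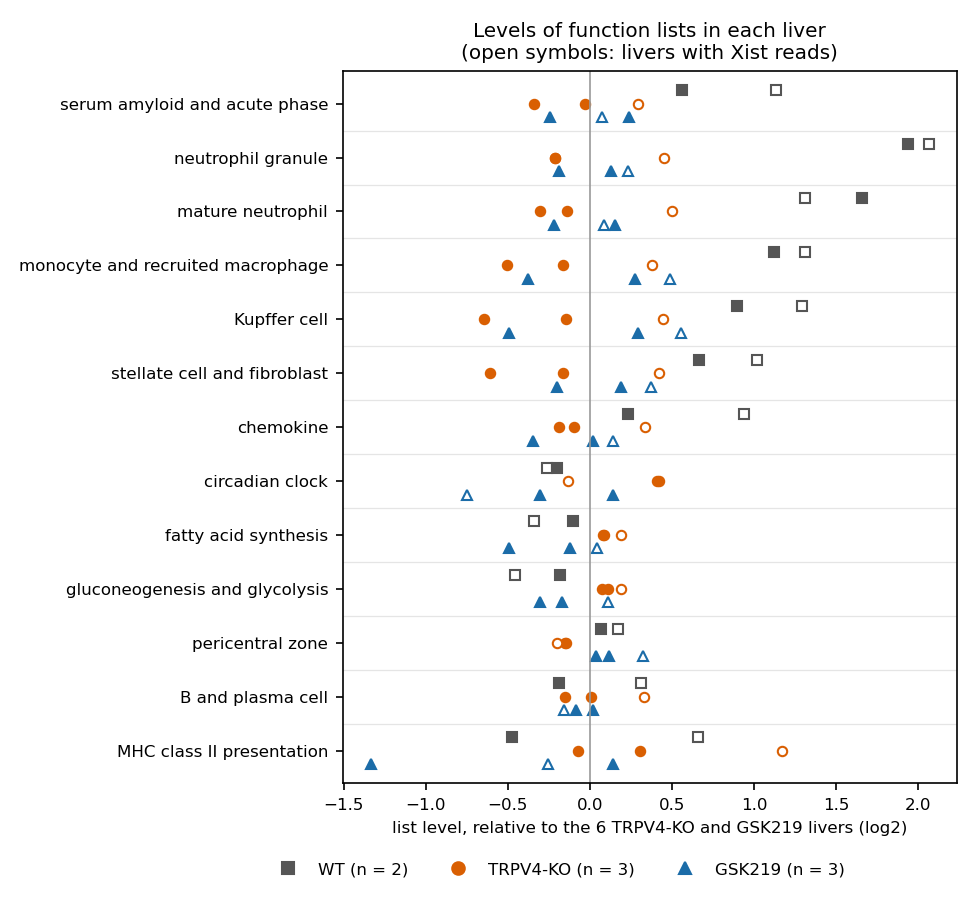
Level of 13 function lists in each liver, as the median over members of log2 CPM relative to their mean in the 6 TRPV4-KO and GSK219 livers (squares WT, circles TRPV4-KO, triangles GSK219; open symbols are livers with Xist reads). In the 7 inflammatory and stromal lists at the top TRPV4-KO and GSK219 livers overlap around 0, while in the pericentral list they separate. They also separate, narrowly, in the fatty acid synthesis list (lowest TRPV4-KO liver 0.078, highest GSK219 liver 0.045).

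Macrophage and stromal lists had medians below 0. The 13 Kupffer cell genes, markers of the resident liver macrophage, had a median log2 fold change of -0.27, and 0 of 13 were at an unadjusted p under 0.05 by edgeR, although all 13 estimates were negative. Clec4f, a defining Kupffer cell lectin also picked with its values known, had 151, 111 and 237 CPM in TRPV4-KO, 120, 205 and 282 in GSK219 and 426 and 430 in WT livers (log2 fold change -0.28, 95% interval -1.09 to 0.53). Of 21 monocyte and recruited macrophage genes, 1 (Cd9, a tetraspanin) was lower in TRPV4-KO at an unadjusted p under 0.05, and 15 were higher in WT than in TRPV4-KO and 12 higher in WT than in GSK219. The matching shares of all genes tested were 2.64%, 9.5% and 5.87%. The stellate cell and fibroblast list had a median of -0.16 over 23 genes, and the collagens -0.02 over 21. One collagen, Col4a5 of the basement membrane, had a higher level in TRPV4-KO at an unadjusted p under 0.05, with 6.83, 2.46 and 6.66 CPM against 1.95, 3.44 and 1.61 in GSK219 livers (log2 fold change 1.19, adjusted p = 0.732 by edgeR). Col27a1, a fibrillar collagen, had the largest estimate, with 119, 125 and 16.5 CPM in TRPV4-KO and 36.3, 30.2 and 10.4 in GSK219 livers (log2 fold change 1.76, 95% interval -0.23 to 3.75), and passed the threshold in the livers with Y-linked reads (1.86, adjusted p = 0.00155 by edgeR). Reln, a stellate cell gene, had 37.9, 27.3 and 51.6 CPM in TRPV4-KO and 52.6, 54.1 and 75.5 in GSK219 livers (log2 fold change -0.64, adjusted p = 0.728 by edgeR). Of 19 matrix protease and inhibitor genes, none had a higher level and 3 had lower levels in TRPV4-KO at an unadjusted p under 0.05 (15.8%), with a median of -0.27. Of all genes tested, 2.64% were lower at that p. The 3 were Adamts1 and Adamts4, which cleave proteoglycans, and Mmp2, a gelatinase with 3.41, 2.20 and 2.61 CPM in TRPV4-KO and 5.29, 5.92 and 4.00 in GSK219 livers (log2 fold change -0.89, adjusted p = 0.594 by edgeR).

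Genes of signaling between cells had medians close to 0. The 30 chemokine and receptor genes tested had a median of 0.03, and the 33 genes of IL-6, IL-1 and TNF signaling one of 0.01 with 0 at an unadjusted p under 0.05 by edgeR. Il1b, the cytokine interleukin 1 beta, had the second smallest p of that list, with 1.58, 2.01 and 5.96 CPM in TRPV4-KO and 3.46, 7.91 and 7.59 in GSK219 livers (log2 fold change -0.98, 95% interval -2.17 to 0.21). Cxcl1, a neutrophil chemokine picked with its values known, had 21.4, 22.5 and 40.5 CPM in TRPV4-KO, 34.0, 22.6 and 32.2 in GSK219 and 110 and 77.9 in WT livers. Large housekeeping complexes had narrow intervals. The interval lay within -1 to 1 for 82 of 84 ribosomal protein genes and for 74 of 75 nuclear genes of the respiratory chain.

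The circadian clock list had the largest share of members at an unadjusted p under 0.05, 47.6%. Of the 21 clock genes, all tested, 8 had higher levels and 2 (Clock and Arntl) had lower levels in TRPV4-KO at that p, against 3.48% and 2.64% of all genes. None passed the adjusted threshold with edgeR, while Per2 passed it with DESeq2. The median was 0.58, and beside WT it was -0.59 for WT over TRPV4-KO and -0.09 for WT over GSK219. The clock is a feedback loop in which CLOCK and ARNTL switch on the Per and Cry repressors.

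Per1, a repressor of the loop, had 98.3, 71.4 and 76.1 CPM in TRPV4-KO livers, 35.6, 48.1 and 47.8 in GSK219 livers and 25.4 and 33.3 in WT livers. The groups did not overlap, and the log2 fold change was 0.90 (SE 0.18, 95% interval 0.49 to 1.31, adjusted p = 0.253 by edgeR). Clock itself had 37.8, 36.2 and 36.0 CPM in TRPV4-KO against 50.3, 54.1 and 67.7 in GSK219 livers (log2 fold change -0.65, SE 0.16). Bhlhe40, a repressor, had 187, 186 and 185 CPM in TRPV4-KO and 104, 143 and 84.9 in GSK219 livers (log2 fold change 0.75).

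Livers of one group differed widely for several clock genes, and the liver with Xist reads was often the one apart. The naming rule did not pick these genes, which are given with their values known. Per2 had 99.1, 92.5 and 34.6 CPM in TRPV4-KO replicates 1 to 3 and 36.6, 17.5 and 16.4 in GSK219 replicates 1 to 3. Dbp, a clock output gene, had 96.9, 105 and 161 CPM in TRPV4-KO and 172, 74.9 and 5.86 in GSK219 livers, and Arntl had 2.47, 2.33 and 4.28 against 2.64, 7.01 and 21.5. The Per2 log2 difference was 1.05 between the livers with Xist reads and 1.81 between those with Y-linked reads, on the log2 scale of CPM plus 0.5. For Cry1 these differences were -1.46 and 2.08, in opposite directions. With 1 liver carrying Xist reads in each group, sex and the single liver cannot be told apart in these values. The count of 10 clock genes at an unadjusted p under 0.05 was 5 without TRPV4-KO replicate 2, 6 without TRPV4-KO replicate 1 and 6 without GSK219 replicate 2.

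**Figure D4:**
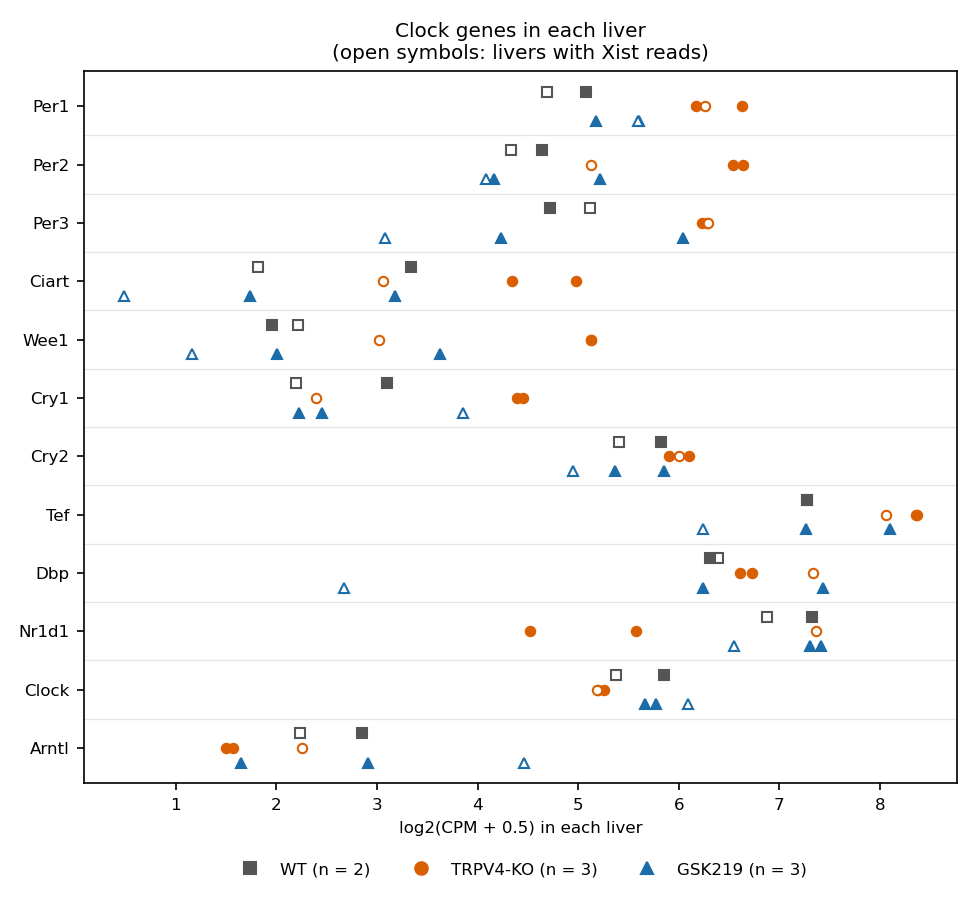
Level of 12 clock genes in each liver, as log2 of CPM plus 0.5 (squares WT, circles TRPV4-KO, triangles GSK219; open symbols are livers with Xist reads). Per1 is higher and Clock lower in all 3 TRPV4-KO livers than in any GSK219 liver, while for Dbp, Arntl and Nr1d1 the livers of a group are widely spread.

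Genes of fatty acid synthesis, the hepatic pathway that turns excess carbohydrate into lipid, had mostly positive estimates. Of 23 tested, 7 were higher and 1 lower at an unadjusted p under 0.05, against 3.48% and 2.64% of all genes, with a median of 0.38 and estimates above 0 for 20. Elovl6, a fatty acid elongase, had 121, 141 and 103 CPM in TRPV4-KO, 84.0, 47.2 and 76.5 in GSK219 and 70.3 and 70.4 in WT livers (log2 fold change 0.81, 95% interval 0.32 to 1.30). Thrsp, a regulator of lipogenesis, had 434, 407 and 250 CPM in TRPV4-KO and 93.1, 30.2 and 148 in GSK219 livers (log2 fold change 2.01, 95% interval 0.51 to 3.51). Dgat2, which makes triglyceride, had a log2 fold change of 0.49. Insig2, which holds back the lipogenic transcription factor SREBP, had 46.3, 50.5 and 94.8 CPM in TRPV4-KO against 113, 156 and 245 in GSK219 livers (log2 fold change -1.42, 95% interval -2.23 to -0.61, adjusted p = 0.428 by edgeR). Insig2 passed the threshold with the replicate block (log2 fold change -1.43, adjusted p = 0.014 by edgeR) and with DESeq2. The count of 8 was 5 without TRPV4-KO replicate 2 and 4 without GSK219 replicate 2.

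Of 30 genes of gluconeogenesis and glycolysis, 6 were higher and 1 lower in TRPV4-KO at an unadjusted p under 0.05, beside 3.48% and 2.64% of all genes, with a median of 0.25. Slc2a2, the hepatocyte glucose transporter, had 456, 380 and 400 CPM in TRPV4-KO livers, 301, 304 and 271 in GSK219 livers and 204 and 183 in WT livers. Its log2 fold change was 0.50 (95% interval 0.23 to 0.76, adjusted p = 0.354 by edgeR), and GSK219 lay between WT and TRPV4-KO. Pfkl, the liver phosphofructokinase, had 54.9, 56.4 and 53.7 CPM against 38.0, 38.6 and 46.7 (log2 fold change 0.42). Gys2, the liver glycogen synthase, had 383, 279 and 154 CPM in TRPV4-KO and 163, 140 and 76.9 in GSK219 livers (log2 fold change 1.10) and passed the threshold with the replicate block in 8 livers (1.08, adjusted p = 0.0193 by edgeR) but not in the 6 compared livers. In the livers with Y-linked reads the log2 fold change of Gys2 was 1.11. Slc37a4, the glucose 6-phosphate transporter, had a log2 fold change of 0.54. The count of 7 was 3 without TRPV4-KO replicate 1, 4 without TRPV4-KO replicate 2 and 15 in the fit of livers carrying Y-linked reads.

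Pericentral genes, which hepatocytes around the central vein express under Wnt signaling, had mostly negative estimates. Of 20, none was higher and 6 were lower at an unadjusted p under 0.05 (2.64% of all genes were lower), with a median of -0.30, and 3 were left without GSK219 replicate 3. Beside WT the medians were 0.26 for WT over TRPV4-KO and -0.06 for WT over GSK219. Avpr1a, a vasopressin receptor, had 19.4, 16.0 and 32.8 CPM in TRPV4-KO, 40.3, 39.0 and 65.8 in GSK219 and 45.6 and 41.6 in WT livers (log2 fold change -1.09, 95% interval -1.77 to -0.40). With the replicate block Avpr1a passed the threshold in 8 livers (-1.11, adjusted p = 0.0199 by edgeR) but not in the 6 compared livers. Avpr1a also passed with a term for sex reads (-1.10, adjusted p = 0.0367 by edgeR) and with DESeq2 (adjusted p = 0.0354). In the livers with Y-linked reads its log2 fold change was -1.18. Lgr5, a receptor that amplifies Wnt signals, had 10.2, 7.45 and 10.8 CPM in TRPV4-KO and 16.1, 12.4 and 17.5 in GSK219 livers (log2 fold change -0.69), and the Wnt target Nkd1 a log2 fold change of -0.67. Glul, glutamine synthetase, had 946, 847 and 761 CPM against 1071, 1129 and 1664 (log2 fold change -0.60, 95% interval -1.06 to -0.13). The periportal list, of hepatocytes near the portal vein, had a median of 0.11 over 17 genes, with Hsd17b13, a lipid droplet enzyme, at 359, 361 and 344 CPM in TRPV4-KO and 232, 211 and 191 in GSK219 livers (log2 fold change 0.75, adjusted p = 0.108 by edgeR).

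Among B and plasma cell genes, 4 immunoglobulin-related transcripts had the smallest p, with negative estimates. Igha, the constant region of immunoglobulin A, had 11.7, 5.64 and 6.37 CPM in TRPV4-KO livers, 55.7, 47.0 and 112 in GSK219 livers and 93.6 and 37.3 in WT livers. The groups did not overlap, and the log2 fold change was -3.18 (SE 0.52, 95% interval -4.41 to -1.96). It missed the threshold with edgeR (adjusted p = 0.145) and passed it with DESeq2 (adjusted p = 4.69e-10). Jchain, which joins immunoglobulin chains, Igkc and Iglc1, light chains, had log2 fold changes of -1.54, -1.28 and -1.66. These 4 were the only ones of the 20 genes in the B and plasma cell list at an unadjusted p under 0.05 (20%, against 6.12% of all genes). The median of that list was 0.59, of opposite sign, since 13 estimates were above 0. The T and NK lymphocyte list had a median of 0.15 over 21 genes and 0 at an unadjusted p under 0.05 by edgeR.

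The 8 tested genes of MHC class II presentation, by which antigen presenting cells display peptides, had the largest median of the 48 lists, 0.94, with 0 at an unadjusted p under 0.05 by edgeR. H2-Aa had 82.1, 62.3 and 154 CPM in TRPV4-KO livers, 21.1, 58.7 and 49.3 in GSK219 livers and 82.4 and 31.2 in WT livers (log2 fold change 1.21, 95% interval -0.05 to 2.47). The groups did not overlap, but the nearest livers, at 62.3 and 58.7 CPM, were close. Among 42 interferon-stimulated genes the median was 0.10, and 2 were higher (Xaf1 and Igtp) and 1 lower (Oasl1) in TRPV4-KO at an unadjusted p under 0.05. Igtp, an interferon-induced GTPase, had 69.7, 63.1 and 92.6 CPM in TRPV4-KO and 28.3, 28.3 and 43.2 in GSK219 livers (log2 fold change 1.17, adjusted p = 0.53 by edgeR). Igtp passed the threshold with the replicate block in the 6 compared livers (1.17, adjusted p = 0.0446 by edgeR), with the term for sex reads (adjusted p = 0.0261 by edgeR) and with DESeq2 (adjusted p = 0.039), but not with the block in 8 livers.

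Other lists of liver metabolism held single genes with large estimates. Cyp2a22, a cytochrome P450, had 3.41, 0.907 and 87.7 CPM in TRPV4-KO and 0.189, 0.0604 and 0.538 in GSK219 livers, the highest in the liver with Xist reads. Its log2 fold change was 6.82 (95% interval 1.55 to 12.1, adjusted p = 0.694 by edgeR), and it passed the threshold with DESeq2 (adjusted p = 0.00487) and with the block in 6 livers (adjusted p = 0.0441 by edgeR). Hmgcs1, an enzyme of cholesterol synthesis, had 195, 221 and 248 CPM in TRPV4-KO and 534, 321 and 524 in GSK219 livers (log2 fold change -1.05, 95% interval -1.68 to -0.42), and passed with DESeq2 (adjusted p = 0.0272). Cyp7a1, the rate-limiting enzyme of bile acid synthesis, had 395, 352 and 96.7 CPM in TRPV4-KO and 99.5, 72.2 and 79.9 in GSK219 livers (log2 fold change 1.75, 95% interval 0.24 to 3.25), and passed in the livers with Y-linked reads (2.10, adjusted p = 0.00307 by edgeR). Por, the reductase that serves cytochrome P450 enzymes, had 1066, 922 and 609 CPM against 492, 321 and 449 (log2 fold change 1.04, 95% interval 0.49 to 1.59), and passed with DESeq2 (adjusted p = 0.0118). Plin2, a lipid droplet coat protein, had 250, 236 and 272 CPM against 451, 336 and 405 (log2 fold change -0.65). The list of cholesterol synthesis had a median of -0.03, that of bile acids 0.01, that of PPARa and fatty acid oxidation 0.02 and that of the PXR, CAR and AhR response 0.25.

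Among TRP and mechanosensitive channels, 14 of 31 were tested, with a median of -0.07. Piezo1, the stretch-activated channel upstream of TRPV4 in the study's model, was picked with its values known. It had 11.4, 11.3 and 17.6 CPM in TRPV4-KO livers, 10.0, 14.3 and 16.4 in GSK219 livers and 23.6 and 19.2 in WT livers (log2 fold change -0.01, 95% interval -0.56 to 0.53). Tmem63a, a mechanosensitive channel, and Trpm4, a cation channel opened by calcium, were at an unadjusted p under 0.05, Tmem63a with a log2 fold change of 0.40 and Trpm4 with 1.33, 1.30 and 1.74 CPM in TRPV4-KO and 1.95, 4.95 and 1.85 in GSK219 livers. Of 34 calcium handling genes tested, 2 had higher levels and 1 had a lower level in TRPV4-KO at that p, 8.82% against 6.12% of all genes. Itpr1 (the IP3 receptor, 0.62) and Orai1 (a store-operated channel, 0.63) were the higher ones. Orai1 lies 8.39 Mb from Trpv4, within the 10 Mb window around it, and the part of its position was not tested.

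**Figure D5:**
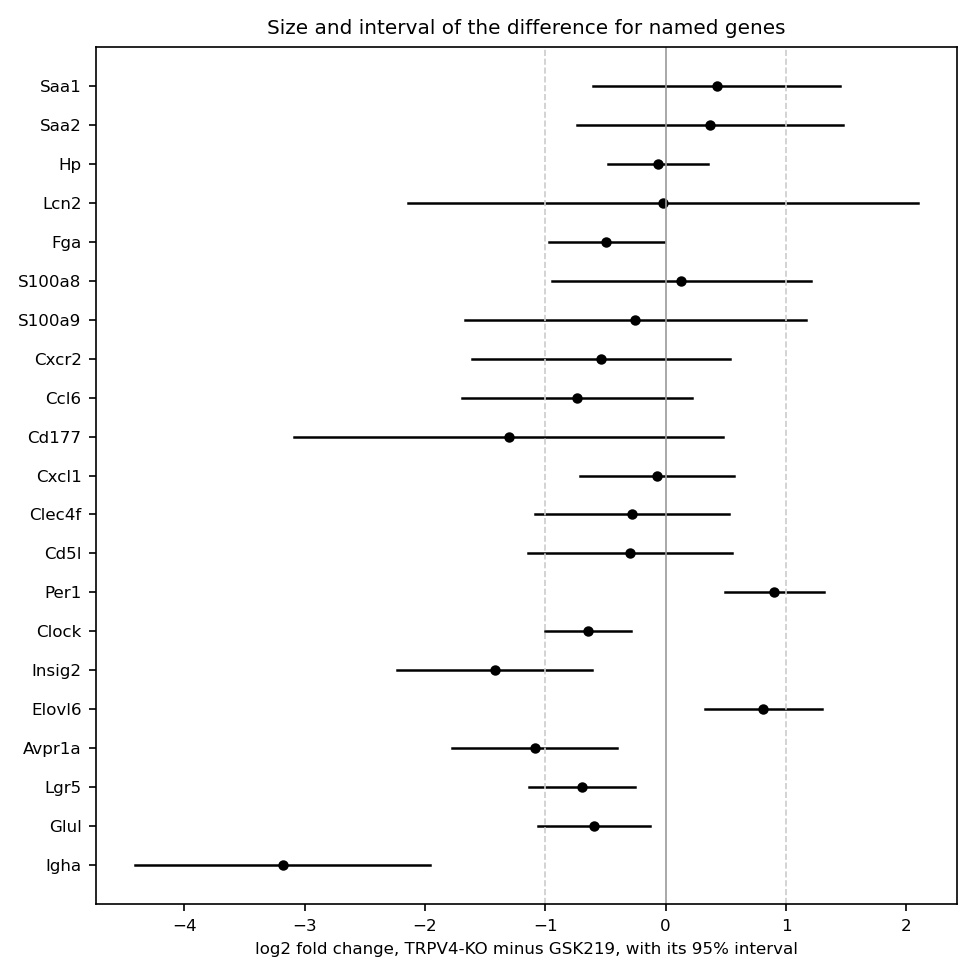
Log2 fold change of TRPV4-KO over GSK219 with its 95% interval for 21 named genes (dashed lines at -1 and 1). The intervals of the inflammatory genes from Saa1 to Cd5l include 0, apart from that of Fga, while those of Per1, Clock, Insig2, Elovl6, Avpr1a, Lgr5, Glul and Igha do not. The genes from Per1 to Igha were picked for the smallest p within their lists in this same comparison, which favors intervals without 0. Most of the inflammatory genes were not picked that way, so the figure cannot weigh these sets against each other.

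The remaining lists had medians between -0.31 and 0.32. The nuclear respiratory chain had a median of 0.14 over 75 genes. Beside WT, 45 of these 75 were lower in WT than in TRPV4-KO at an unadjusted p under 0.05 and 11 lower in WT than in GSK219, with medians of -0.32 and -0.21. Over all genes tested, 7.61% and 2.34% were lower in WT. The heat shock list had a median of 0.29, the immediate early list -0.31, the iron and heme list -0.01 and the cell cycle list 0.12. Egr1, Fos and Cyr61 were the immediate early genes with lower levels in TRPV4-KO at an unadjusted p under 0.05. Male-biased and female-biased liver genes had medians of 0.17 and 0.32 with 0 and 1 members at an unadjusted p under 0.05 by edgeR, and major urinary protein genes 0.02. Livers with Xist and with Y-linked reads differ widely in these genes, so this fit has little precision for them. Elovl3, a male-biased elongase, had 22.9, 18.5 and 0.695 CPM in TRPV4-KO and 89.9, 59.2 and 3.83 in GSK219 livers. It passed the threshold with the block in 6 livers (-1.96, adjusted p = 0.0385 by edgeR) and in the livers with Y-linked reads (-1.87, adjusted p = 0.0283 by edgeR). Sult3a1, a female-biased sulfotransferase picked with its values known, passed with the term for sex reads (-2.20, adjusted p = 0.0329 by edgeR).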

How the data were processed

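Liver RNA-Seq was analyzed for 3 TRPV4-KO, 3 GSK219 and 2 WT libraries. The authors deposited counts of reads per gene, without normalization, for 54532 genes with coordinates that match GRCm38. The submitters' processing notes name HISAT2 2.0.5 and Trim Galore; the counting tool is not given in the sources used here. Another 7 count columns fit none of the samples described and stayed out of all steps. Total counts per liver were 15567031 to 17395299, and the biological coefficient of variation was 28.3%.

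Differential expression used edgeR 4.0.16 under R 4.3.3 (TMM normalization, filterByExpr with a minimum count of 10, robust quasi-likelihood fit of all 8 livers, Benjamini-Hochberg adjustment over 15118 genes). The 95% interval used the standard error from the quasi-likelihood F. DESeq2 1.42.0, other normalizations and filters, a term for sex reads, fewer livers and each liver left out were alternatives. Sums over genes of shared sequence (megablast at 95% identity over 100 bases, GENCODE M21 transcripts) and the fit of livers with Y-linked reads were added after the data were seen. Scripts were tested on simulated data.

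Gene lists and members were chosen with earlier results of these data known. Text names the genes past the threshold, filled to 10 per direction by the smallest p, those named in the study and up to 4 members per list, and exceptions are marked. Some genes that this rule picks are not reported here. One listed symbol had no match and 4 were matched through RefSeq synonyms. Label numbers were taken to pair the livers, since deviations from the group mean of same-numbered TRPV4-KO and GSK219 livers correlated across genes at 0.29, 0.15 and 0.58. Differently numbered livers with the same sex reads correlated at 0.48 and 0.31, as strongly, and pairs with unlike sex reads negatively, so the correlations follow sex reads as well as numbers. Sample titles give the livers as biological replicates, and counts between livers of a group varied more than counting alone gives (chi-square over its degrees of freedom 16.8 to 111).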

Additional observations from a re-analysis of the deposited data

Results flagged for a closer look

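An interaction term of group with sex reads, in an edgeR fit of the 6 livers, had an adjusted p under 0.05 for 29 of 14126 genes. At an unadjusted p under 0.05 there were 1880 such genes. Only 1 liver of each group carried Xist reads, so the term sets 1 liver against 1 on that side and assumes that they vary like the others. It does not show a difference between the sexes, since sex and the individual liver cannot be told apart. The fit was chosen after the data were seen.

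The 5 members of the function lists with the smallest p were Cry1, Ppp1r3b, Angptl4, Trib3 and Hspa1b. The difference of the log2 fold changes was -3.75 for Cry1, a repressor of the circadian clock. Cry1 had 20.2 and 21.4 CPM in the TRPV4-KO livers with Y-linked reads and 4.63 in the one with Xist reads, against 5.05, 4.14 and 13.8 in GSK219 livers (adjusted p = 0.0233 by edgeR). For Ppp1r3b, which directs a phosphatase to glycogen, it was -2.73, from 325, 307 and 141 CPM in TRPV4-KO and 109, 84.9 and 287 in GSK219 livers (adjusted p = 0.0248 by edgeR). For Angptl4, an inhibitor of lipoprotein lipase, it was -2.26, with 121, 99.3 and 33.7 CPM in TRPV4-KO and 111, 117 and 167 in GSK219 livers. Trib3, a pseudokinase induced by stress, and Hspa1b, a heat shock protein, had differences of 3.23 and -4.12, and Hal, which degrades histidine, 1.77. For the first 5 genes the TRPV4-KO liver with Xist reads lay on the other side of its GSK219 counterpart than the livers with Y-linked reads, apart from Angptl4, where the livers with Y-linked reads overlapped.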

How the results depend on the processing

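Against 8 higher and 7 lower genes, DESeq2 gave 45 and 48, no filter on low counts 18 and 20, a term for sex reads 17 and 17, and the fit of livers with Y-linked reads 68 and 77. Fewer were called in the test against the fold threshold itself (3 and 3), without genes within 10 Mb of Trpv4 (4 and 4), with copies summed (3 and 4), and, for lower genes, in the fit of 6 livers (4) and of 6 livers with the replicate block (4). With the replicate block in 8 livers they were 9 and 10. Leaving out each liver gave 4 to 38 higher and 4 to 41 lower, the most without TRPV4-KO replicate 3. All 15 genes kept their direction. Numbers of members at an unadjusted p under 0.05 moved for the clock list (6 of 10 without the count filter; 5 to 13 leaving out livers), fatty acid synthesis (4 to 11), gluconeogenesis and glycolysis (11 with DESeq2, 15 in livers with Y-linked reads; 3 to 10 leaving out livers) and the pericentral list (3 to 7). The log2 fold change of Trpv4 lay between -1.44 and -0.60 and did not pass in any setting. Depth limited the neutrophil genes, most of them with under 20 counts in TRPV4-KO and GSK219 livers.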
